A study of Mus musculus with 4 samples.

Results

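The 8 genes *Malat1*, *Neat1*, *Miat*, *Gas5*, *Snhg1*, *Snhg3*, *Snhg8* and *Snhg11* make long RNAs that are not translated into known proteins. They were chosen by gene symbol, with their values in these data in view, and all 8 were found among the 23997 genes of the deposited table. Lgr5+ progenitors were EGFP+ cells that flow cytometry had sorted out of cochleae at postnatal day 3 (P3), taken from mice of the line Lgr5-EGFP-IRES-CreERT2, and Lgr6+ progenitors were EGFP+ cells sorted from Lgr6-EGFP-IRES-CreERT2 mice of the same age. The labels give the strain C57BL/6 and list 2 samples for each population, 4 in all, whereas the methods describe RNA of each population that was split into 3 fractions, so that such replicates would share 1 RNA extraction. Each mouse line carries the EGFP and tamoxifen-inducible Cre cassette in the gene that names the population, both populations are therefore from reporter animals, and their identity rests on the EGFP gate.

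The table holds 1 FPKM value (fragments mapped, relative to transcript length and to the mapped total) per gene and population. Single libraries were not analysed here. The replicate error is thus unknown, no test was made, and every difference given here is a description of a pair of combined values. Differences are given on the log2 scale, as the log2(FPKM + 1) of Lgr6+ minus the one of Lgr5+ progenitors, so that changes of weakly expressed genes appear smaller than they are. A gene was kept when its FPKM was at least 1 in at least 1 population, which 13436 genes reached. The summed FPKM was 754163 (Lgr5+) and 627932 (Lgr6+). Markers of the sort did not separate the populations by name. The FPKM of *Lgr5* was 9.65 (Lgr5+) and 25.0 (Lgr6+), and that of *Lgr6* was 2.06 and 2.90. Wherever a pair of values is given without names, Lgr5+ progenitors come first. Supporting cell markers were present in both populations, with *Sox2* at 139.6 and 54.8, but so were the hair cell markers *Myo7a*, at 19.3 and 47.0, and *Otof*, at 41.6 and 171.

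Long noncoding RNAs act as RNA. *Malat1* RNA gathers at nuclear speckles, the sites that store splicing factors. *Neat1* RNA is the scaffold of paraspeckles, which are nuclear bodies built on it by RNA-binding proteins, and *Miat*, also known as Gomafu, makes a nuclear RNA known from neurons and retina. *Gas5* and the *Snhg* genes carry small nucleolar RNAs (snoRNAs) in their introns. The snoRNAs guide the chemical modification of ribosomal RNA, while the spliced host RNA of *Gas5* and *Snhg1* is exported and degraded by nonsense-mediated decay. Many snoRNA hosts, among them *Gas5* and most ribosomal protein genes, start their RNA with a C followed by a run of pyrimidines, which is known as a 5′ terminal oligopyrimidine (TOP) start.

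The starts of these RNAs are shown because the hosts with lower and with higher FPKM in Lgr6+ progenitors are compared here. The sequences are from RefSeq (GRCm38.p6), where 7 of the 8 genes were matched, and *Neat1* is the other gene. For 5 of the 7 the annotated start is also the boundary of the deposited interval. Each line gives, on the transcribed strand, the 50 bases before the start and the first 30 bases of the RNA. Capitals mark an unbroken run of at least 6 bases that are each C or T, searched from 5 bases before the start to the first 20 bases of the RNA, and the letters TATAAA or their reverse complement TTTATA, searched in the 50 bases before the start. No marked run overlaps a marked TATAAA or TTTATA.
Gas5: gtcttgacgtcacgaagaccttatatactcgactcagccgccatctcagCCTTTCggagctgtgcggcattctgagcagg
Snhg1: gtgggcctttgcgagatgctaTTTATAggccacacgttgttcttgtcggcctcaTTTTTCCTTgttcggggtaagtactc
Snhg8: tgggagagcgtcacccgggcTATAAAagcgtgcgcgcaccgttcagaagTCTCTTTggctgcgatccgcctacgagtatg
Snhg3: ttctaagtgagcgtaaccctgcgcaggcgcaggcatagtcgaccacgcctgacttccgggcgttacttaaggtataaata
Snhg11: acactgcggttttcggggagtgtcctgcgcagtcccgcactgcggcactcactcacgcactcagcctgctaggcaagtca
Miat: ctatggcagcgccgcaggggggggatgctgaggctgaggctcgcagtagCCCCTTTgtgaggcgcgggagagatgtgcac
Malat1: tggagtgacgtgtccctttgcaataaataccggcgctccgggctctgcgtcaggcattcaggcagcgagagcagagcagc

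These stretches lie at chr1:161035116-161035195 (+ strand) for *Gas5*, chr19:8723437-8723516 (+ strand) for *Snhg1*, chr3:123508307-123508386 (− strand) for *Snhg8*, chr4:132353657-132353736 (− strand) for *Snhg3*, chr2:158375663-158375742 (+ strand) for *Snhg11*, chr5:112228919-112228998 (− strand) for *Miat* and chr19:5802643-5802722 (− strand) for *Malat1*. A pyrimidine run was found in the window around 4 of the 7 starts, those of *Gas5*, *Snhg1*, *Snhg8* and *Miat*. Such a run is held by 22.3% of the 32851 RefSeq starts in the same window, and the same run on the opposite strand by 27.1%. The longest was the run of 9 bases in *Snhg1*, which begins inside the RNA after an A and does not cover the start. TATAAA lies 30 bases before the start of *Snhg8* and TTTATA lies 29 bases before that of *Snhg1*, while 3.5% of all starts hold either of them in that window. *Snhg3* has TATAAA from base 23 of its RNA, which is outside the window. These matches describe letters and not bound sites.

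*Malat1* dominated the 8 genes in both populations. Its FPKM was 9615 in Lgr5+ progenitors, the highest of all genes there, and 4506 in Lgr6+ progenitors, where it ranked 5. It was thus lower in Lgr6+ progenitors by a log2 difference of -1.09, a ratio of 2.13 between Lgr5+ and Lgr6+ progenitors. The difference was under 1.5-fold after quantile normalization (-0.50) and with an equal sum of ribosomal protein genes (-0.35). The share of *Malat1* in the sum over all genes was 1.27% (Lgr5+) and 0.718% (Lgr6+), and its share in the FPKM of the 8 genes was 96.8% and 92.4%. The other 7 genes together had 322 (Lgr5+) and 369 (Lgr6+). In bulk RNA of sorted cells, fewer cells of a type and less RNA per cell cannot be told apart.

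In Lgr5+ progenitors the order of the FPKM levels, from high to low, was *Malat1*, *Gas5*, *Snhg1*, *Miat*, *Snhg3*, *Snhg8*, *Snhg11* and *Neat1*. In Lgr6+ progenitors it was *Malat1*, *Snhg3*, *Miat*, *Gas5*, *Snhg1*, *Snhg8*, *Snhg11* and *Neat1*. The ends of the order were the same genes, and *Snhg3* and *Miat* stood above *Gas5* and *Snhg1* in Lgr6+ progenitors only. Without a spread between replicates, which neighbours in this order differ beyond error is not known.

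**Figure D1:**
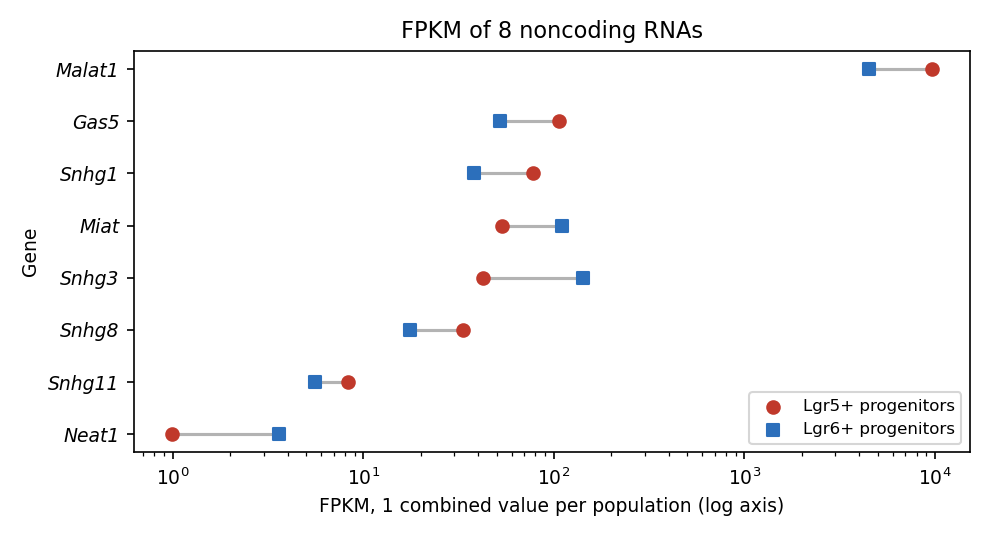
FPKM of the 8 noncoding RNAs on a log axis, with 1 combined value per population and no error bars because values of single libraries were not analysed. *Malat1* lies at 9615 and 4506, far to the right of the other 7 genes, and the Lgr6+ square lies to the right of the Lgr5+ circle only for *Miat*, *Snhg3* and *Neat1*.

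Of the 8 genes, 4 were at least 1.5-fold lower in Lgr6+ progenitors, namely *Malat1*, *Gas5*, *Snhg1* and *Snhg8*. Over all kept genes, 23.3% were lower to that extent. Another 3, *Snhg3*, *Neat1* and *Miat*, were at least 1.5-fold higher, against 28.5% of all kept genes, and *Snhg11* lay between. In either direction 7 of 8 genes were past 1.5-fold, against 51.8% of the kept genes, and nothing is read from these shares because the genes were chosen with these values in view. *Neat1* was kept only through its value in Lgr6+ progenitors and so had to lie on the higher side. At 2-fold, 3 of the 8 genes were lower, 3 higher and 6 in either direction, against 11.7%, 18.2% and 29.9% of the kept genes. The median log2 difference was -0.69 for the 8 genes and -0.89 without *Neat1*, beside 0.03 for all kept genes.

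As deposited, the median abundant gene was lower in Lgr6+ progenitors. Among the 1915 kept genes with a mean FPKM of at least 50, the median log2 difference was -0.22, with 27.9% at least 1.5-fold lower, 11.2% higher and 39.1% past 1.5-fold in either direction. Among the 123 with a mean of at least 1000 the median was -0.57, 47.2% were at least 1.5-fold lower, 2.44% higher and 49.6% past 1.5-fold in either direction. These medians depended on the scaling. With the same summed FPKM in each population they were 0.04 and -0.31, after quantile normalization -0.03 and -0.12, and with an equal sum of ribosomal protein genes 0.52 and 0.18. *Malat1* belongs to these 123 genes, 11 of which had a lower difference than *Malat1* as deposited.

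**Figure D2:**
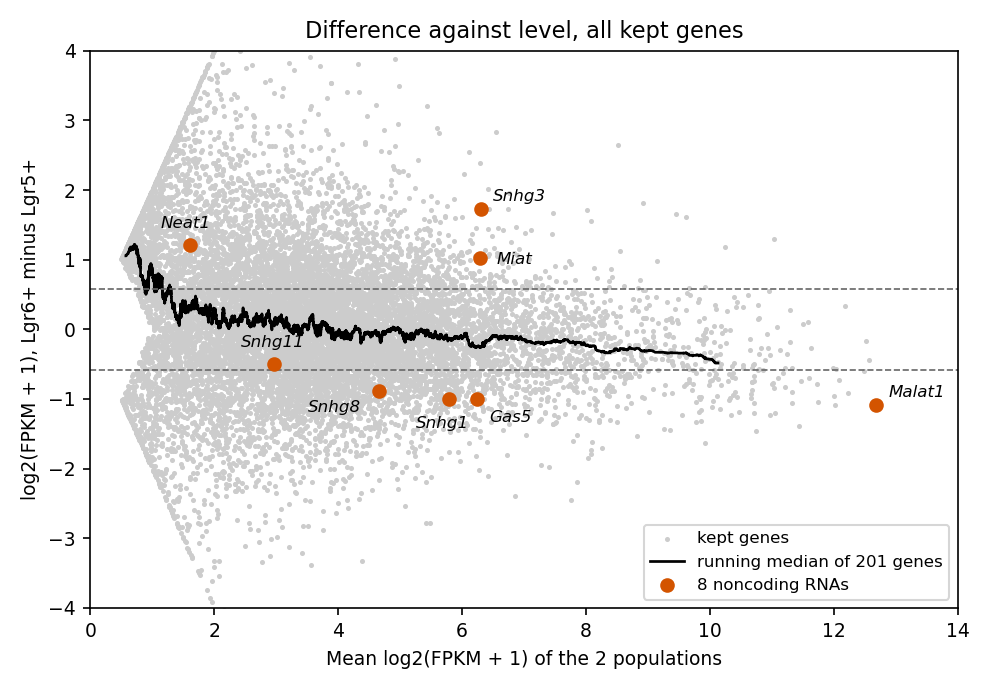
Log2 difference (Lgr6+ minus Lgr5+) against the mean log2(FPKM + 1) of the populations for kept genes (grey), with the running median of 201 genes (black line), the 1.5-fold limits (dashed) and the 8 noncoding RNAs (orange). The running median falls below 0 at high levels, *Malat1* lies at the far right at -1.09, and *Snhg3* at 1.72 is the highest of the 8 genes. The axis runs from -4 to 4 and leaves out 51 kept genes.

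The next gene after *Malat1* on chromosome 19 in the table is *Neat1*, 39630 bases away, and it took the opposite direction. *Neat1* (chr19:5842302-5845478 in GRCm38, like all intervals given here) had an FPKM of 0.988 (Lgr5+) and 3.62 (Lgr6+), a log2 difference of 1.22. *Malat1* (chr19:5795690-5802671) was therefore 9728 times as high as *Neat1* in Lgr5+ progenitors and 1244 times as high in Lgr6+ progenitors. *Neat1* ranked 11907 and 10107 among all genes, and 11.4% and 24.8% of the kept genes had a lower FPKM, so that it was not an abundant RNA in either population. The deposited interval of *Neat1* spans 3177 bases, the stretch of the short polyadenylated form, whereas the RefSeq gene with its long form spans 20773 bases. Paraspeckles need the long form, which this value does not describe.

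Low FPKM values can show what 1 fragment is worth. Over 6908 genes with 1 annotated transcript, the product of FPKM and transcript length in kilobases, less 200 bases, had a step of 0.127 in Lgr5+ progenitors and of 0.0399 in Lgr6+ progenitors. If 1 step is 1 fragment, *Neat1* rested on 23.1 fragments in Lgr5+ progenitors and on 270.3 in Lgr6+ progenitors. The meaning of the step was not tested further, and it gives no depth of a single library. The other neighbour of *Neat1*, *Frmd8*, which lies 5495 bases away and codes for a FERM domain protein, had 2.37 and 7.92. This protein-coding neighbour thus had a higher FPKM in Lgr6+ progenitors, as *Neat1* did.

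*Miat* (chr5:112213228-112228948) had an FPKM of 53.5 (Lgr5+) and 109.9 (Lgr6+). The log2 difference was 1.02, and its rank moved from 1853 to 909. *Cryba4* and 1700028D13Rik on its flanks were listed at 0 in both populations. *Miat* and *Snhg11* are known from neurons. Of the 10 neuron markers examined, 2 were at least 1.5-fold higher and 3 at least 1.5-fold lower in Lgr6+ progenitors. Over all kept genes these shares were 28.5% and 23.3%. The summed FPKM of the 10 markers was 156.7 and 162.5. The presynaptic gene *Snap25* had 7.63 and 53.4, and the neuronal tubulin gene *Tubb3* had 1.18 and 0.0959. No neuron marker was listed at 0 in either population.

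Markers of other cell types moved with the populations. All 8 hair cell markers were higher in Lgr6+ progenitors, 7 of them by at least 1.5-fold, beside 28.5% of all kept genes. Their sum was 274 (Lgr5+) and 936 (Lgr6+). The calcium-binding protein gene *Ocm* had the largest difference of these, with 15.3 and 268. Supporting cell markers summed to 991 and 391, with 4 of 10 at least 1.5-fold lower, beside 23.3% of all kept genes, and *Lgr5* higher. The sums of the 8 macrophage markers were 1.12 and 205, and 6 of these markers (*Aif1*, *C1qb*, *C1qc*, *Csf1r*, *Ptprc*, *Tyrobp*) had the value 0 in Lgr5+ progenitors. Of these 6, *Ptprc* was near 0 in Lgr6+ progenitors too (0.00814) and *Csf1r* was low (1.29). The rest ran from 26.6 (*Aif1*) to 69.9 (*C1qb*) there. Glia markers summed to 74.1 and 262, mesenchyme markers to 62.6 and 418, and endothelium markers to 4.92 and 51.6, with *Kdr* listed at 0 in Lgr5+ progenitors. Glial *Foxd3* was listed at 0 in Lgr6+ progenitors. The sum of the erythroid markers went the other way, with 946 and 413. Of these 7 markers, 4 were at least 1.5-fold lower in Lgr6+ progenitors, beside 23.3% of all kept genes. *Hbb-b1* was nearly even, at 316 and 305, and *Alas2* was higher, at 4.36 and 6.64. *Hbb-b1* shares its deposited interval with *Hbb-bs*, and *Hba-a1* with *Hba-a2*, so this sum adds rows that may not be separate. The part of these other cell types in the values of the 8 noncoding RNAs was not tested.

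Among the snoRNA hosts, *Gas5*, *Snhg1* and *Snhg8* had nearly the same ratio between the populations. *Gas5* (chr1:161035166-161038537) had an FPKM of 105.9 (Lgr5+) and 52.3 (Lgr6+). *Snhg1* (chr19:8723487-8726326) had 77.4 and 38.1. Their log2 differences were -1.004 and -1.003. *Snhg8* (chr3:123507552-123508336) had 33.2 and 17.5, a log2 difference of -0.89. The ratio of Lgr5+ to Lgr6+ progenitors ran only from 1.90 to 2.03 over these 3 genes. All 3 carry a pyrimidine run in the searched window, as printed earlier. It covers the annotated start in *Gas5* and *Snhg8*, but in *Snhg1* it begins inside the RNA, after an A.

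*Snhg3* (chr4:132351933-132353686) is the host of the U17 snoRNAs and took the opposite direction. Its FPKM was 42.4 (Lgr5+) and 142 (Lgr6+), a log2 difference of 1.72, and 93.2% of the kept genes had a lower difference. *Snhg3* was lower than *Gas5* in Lgr5+ progenitors and 2.72 times as high as *Gas5* in Lgr6+ progenitors. No pyrimidine run was found in the window around its annotated start. That search rests on the RefSeq start, and TATAAA lies inside this annotated RNA, from base 23. Whether the RNA of these cells begins at the annotated start was not tested, so a TOP start of *Snhg3* is not excluded. *Miat*, which was also higher in Lgr6+ progenitors, does hold a run. Runs at annotated starts were thus found among both lower and higher genes.

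*Snhg11* (chr2:158375638-158386145) was the lowest of the snoRNA hosts. It had an FPKM of 8.28 (Lgr5+) and 5.59 (Lgr6+), and its log2 difference of -0.49 was under 1.5-fold. With 46.8% and 34.4% of the kept genes below it, *Snhg11* was near the middle of the range rather than among the abundant RNAs. Its annotated RefSeq start lies 75 bases inside the deposited interval.

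The intronic snoRNAs themselves were hardly seen in this table. Of 110 snoRNA genes, 97 were listed at 0 in both populations. Whether the library method could capture such small RNAs was not tested, so the zeros do not give their level in the cells. *Snord47* in *Gas5* and *Snora24* in *Snhg8* were listed at 0. *Snord22*, which shares its interval with *Snhg1*, had an FPKM of 26.3 (Lgr5+) and 22.7 (Lgr6+), a log2 difference of -0.20 beside -1.003 for the host. Fragments of a host intron and of the snoRNA within it cannot be told apart in these values.

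Protein-coding genes next to the hosts mostly had differences of another size or sign. *Slc3a2*, which codes for a subunit of amino acid transporters and is transcribed away from *Snhg1*, lies 117 bases from it, with an FPKM of 57.7 and 50.4 and a log2 difference of -0.19. *Zbtb37*, a zinc finger gene transcribed away from *Gas5* and 906 bases from it, had 0.191 and 2.23. The serine protease gene *Prss12*, 949 bases from *Snhg8* and on the opposite strand, had 0.412 and 2.97, but *Ndst3* on the other side, a heparan sulphate sulphotransferase gene, was lower like *Snhg8*, with 3.13 and 0.00790. *Zbtb37* and *Prss12* were kept only through Lgr6+ progenitors and so had to be higher there. *Ndst3* was kept only through Lgr5+ progenitors and so had to be lower in Lgr6+ progenitors. *Rcc1*, the exchange factor of the Ran GTPase, lies on the same strand as *Snhg3* at a distance of 6182 bases and had 8.20 and 2.38, a log2 difference of -1.44 against 1.72 for *Snhg3*.

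For each gene the kept gene with the most similar values was found by the distance between the pairs of log2(FPKM + 1), a likeness over only 2 values. It was Rn45s, the ribosomal RNA precursor, for *Malat1*, with an FPKM of 7098 and 4691 at a distance of 0.44. For *Snhg3* it was *Mfng*, a fringe gene of the Notch pathway, with 46.7 and 157.4 at a distance of 0.20. For the other genes the distance was at most 0.0451, and the genes were *Neil3* for *Neat1*, *Cxcl14* for *Miat*, 2410002F23Rik for *Gas5*, *Fkbp10* for *Snhg1*, *Sidt2* for *Snhg8* and *Klf9* for *Snhg11*. *Malat1* and *Snhg3* thus lay farthest from their most similar gene.

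Other noncoding snoRNA hosts did not follow *Gas5* as a group. Of the 15 listed, 9 were in the table and all 9 were kept, with a median log2 difference of -0.02. *Snhg18* (26.0 and 12.6) and *Snhg9* (203 and 112) were at least 1.5-fold lower in Lgr6+ progenitors. *Dancr*, the host of *Snora26*, was higher, with 13.2 and 67.4 and a log2 difference of 2.27. Over all kept genes, 23.3% were lower and 28.5% higher to that extent. The other 6 were within 1.5-fold, including *Snhg6*, which had the highest FPKM of the list, 204 and 156. *Dancr* and *Snhg3* were thus the snoRNA hosts with the largest differences toward Lgr6+ progenitors among the 14 noncoding hosts measured.

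Of the 31 other long noncoding RNAs listed, 26 were in the table and 18 were kept, with a median log2 difference of 0.18. This median was 0.02 when both populations had to reach an FPKM of 1, 0.01 without a filter and 0.03 after quantile normalization. A gene with low values could pass through 1 population alone, as *Tsix* and *Jpx* did, and so had to differ. The difference was at least 1.5-fold toward Lgr6+ progenitors for 7 and toward Lgr5+ progenitors for 1, beside 28.5% and 23.3% of all kept genes. The 7 were *Xist*, *Tsix*, *Kcnq1ot1*, *Ftx*, *Airn*, *Jpx* and 1700020I14Rik, picked out once their values were known. *Kcnq1ot1* and *Airn*, which silence imprinted gene clusters in cis, had 5.10 and 10.3, and 22.5 and 38.6. *Mir22hg*, the host of a microRNA, was lower, with 16.6 and 7.56. *Xist*, which coats the inactive X chromosome, had the highest difference and the highest FPKM in Lgr6+ progenitors, with 26.2 and 72.0.

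**Figure D3:**
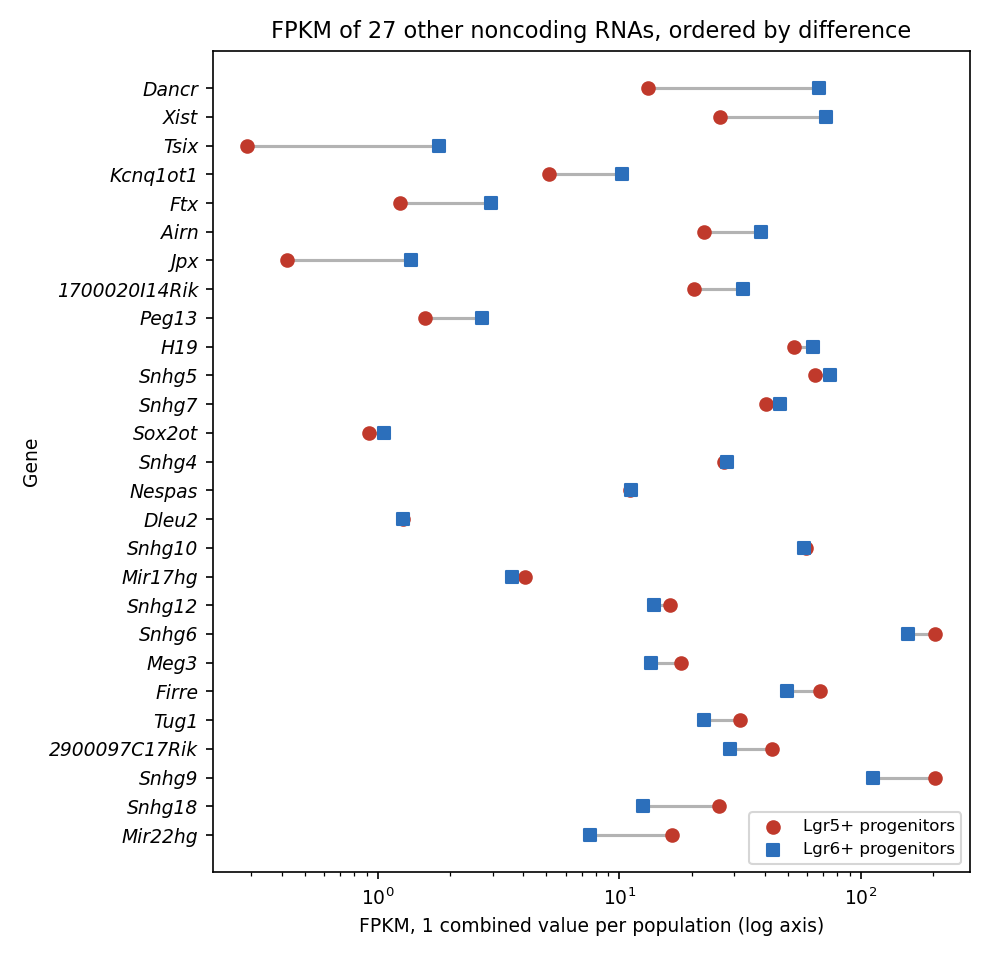
FPKM of the 27 other kept noncoding RNAs (9 snoRNA hosts and 18 long noncoding RNAs) on a log axis, ordered by log2 difference, with 1 combined value per population and no error bars. *Dancr* at the top moves from 13.2 in Lgr5+ progenitors (circles) to 67.4 in Lgr6+ progenitors (squares), and *Mir22hg* at the bottom from 16.6 to 7.56.

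Protein-coding snoRNA hosts were mostly lower in Lgr6+ progenitors. All 26 that were in the table had a negative difference as deposited, 19 of them by at least 1.5-fold. Beside this, 27.9% of the kept genes with a mean FPKM of at least 50 were lower to that extent, and 47.2% of those with at least 1000. The median log2 difference of the 26 was -1.06, and -0.31 when the ribosomal protein sum was set equal between the populations. Of the 26, 17 are ribosomal protein genes and thus part of that sum, so this move toward 0 was in part fixed in advance. *Rps12* had the highest FPKM in Lgr5+ progenitors, 4500.2 beside 1722 in Lgr6+ progenitors. *Rpl13a*, a ribosomal protein gene known for its many intronic box C/D snoRNAs, had the lowest difference, -1.46, with 2834 and 1030.0, and the translation factor gene *Eif4a2* the highest, -0.19, with 226 and 198. *Gas5*, *Snhg1* and *Snhg8*, at -1.004, -1.003 and -0.89, lay within this range, and *Snhg3* at 1.72 lay outside it. Of the 81 kept ribosomal protein genes, hosts included, 49 were at least 1.5-fold lower with a median of -0.71, and 1, *Rpl26*, was at least 1.5-fold higher (23.6 and 59.9).

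For the snoRNA-binding complexes, 16 of 17 listed genes were measured, with a median log2 difference of -0.03. At least 1.5-fold lower in Lgr6+ progenitors were 5 of them, beside 23.3% of all kept genes. These were *Nop58*, *Nop56* and *Fbl*, which belong to the core of box C/D complexes, and *Dkc1* and *Nhp2* of box H/ACA complexes. The FPKM of *Nop58* was 99.5 and 35.9, that of *Dkc1* 38.5 and 13.9, and that of *Nhp2*, the highest of the list in Lgr5+ progenitors, 283 and 109.5. *Nhp2l1* (48.0 and 81.2), which also belongs to the box C/D core, and the assembly factor gene *Shq1* (1.07 and 2.74) were higher. The other 9 were within 1.5-fold, among them *Gar1* (36.4 and 36.1) and *Nop10* (183 and 163) of box H/ACA complexes.

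Of the 13 paraspeckle protein genes, 3 were at least 1.5-fold lower in Lgr6+ progenitors and none was higher, with a median of -0.19. The share of all kept genes was 23.3% lower and 28.5% higher, so that the lower counts of this list and of the next 2 lists are near the background. The 3 were *Smarca4* (37.1 and 19.7), *Ewsr1* (370.2 and 231) and *Rbm14* (12.95 and 8.06). *Nono*, which binds *Neat1* directly, had 88.4 and 92.95, and *Pspc1*, its partner, had the highest difference, 0.46, with 10.3 and 14.5. Of the 15 nuclear speckle genes, 4 were lower and none was higher, with a median of -0.30. *Rbm25*, a splicing regulator, had 238 and 95.1, a log2 difference of -1.31, and *Luc7l3*, *U2af2* and *Srrm1* were the others. *Srsf5*, at 226 and 279, had both the highest level in Lgr6+ progenitors and the highest difference, 0.31.

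For nonsense-mediated decay, 5 of 17 genes were at least 1.5-fold lower in Lgr6+ progenitors and 1 was higher, with a median of 0.00. The lower ones were *Rbm8a*, *Smg9*, *Xrn1*, *Magohb* and *Upf3b*, and *Smg8*, whose deposited interval is very long and may cover other genes, was higher (0.741 and 3.47). *Smg8* was kept only through Lgr6+ progenitors and so had to be higher there. *Upf1*, the helicase at the centre of this pathway, had 6.39 and 9.13, and *Magoh*, a subunit of the exon junction complex with the highest FPKM of the list, had 215 and 233. The medians of these 3 lists depended on the scaling, and with the ribosomal protein sum set equal they were 0.55 for paraspeckles, 0.44 for nuclear speckles and 0.70 for nonsense-mediated decay.

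**Figure D4:**
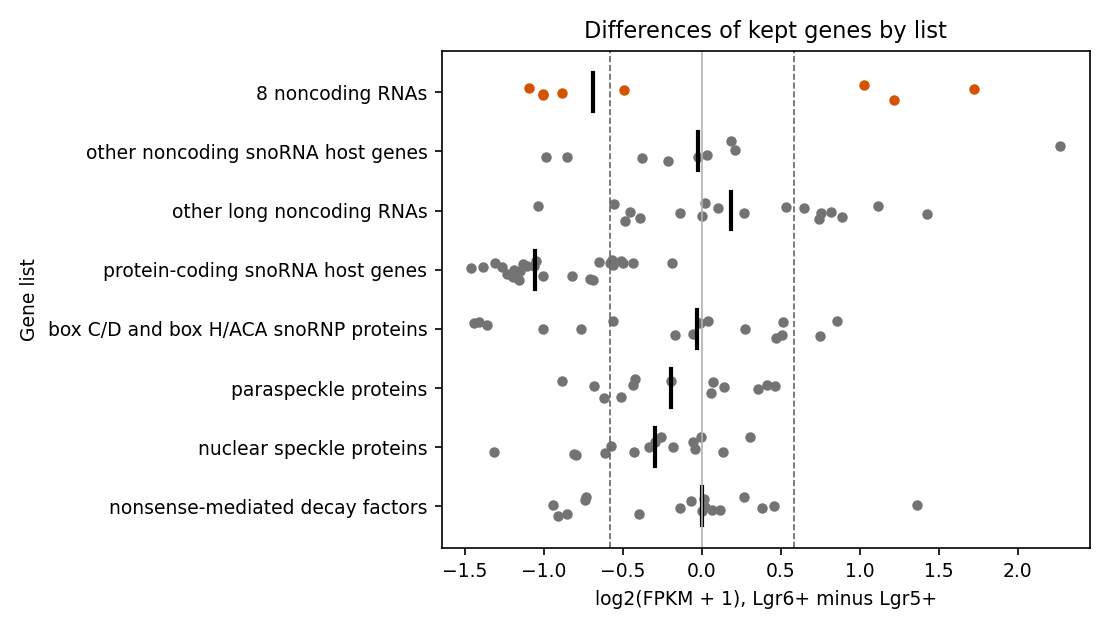
Log2 differences (Lgr6+ minus Lgr5+) of the 8 noncoding RNAs (orange) and of the kept genes of each list (grey), with the median as a black bar, the 1.5-fold limits dashed and vertical scatter only for legibility. Protein-coding snoRNA hosts all lie below 0, with a median of -1.06, while the 8 noncoding RNAs split into a lower and a higher set.

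The lower set depended on what the values were scaled to. When each population was scaled to the same summed FPKM, the median of all kept genes moved by 0.24 on the log2 scale, 37.8% of the kept genes were at least 1.5-fold higher, and higher genes made up 69.0% of all genes past 1.5-fold instead of 55.0%. Under this scaling the same 4 noncoding RNAs were lower and the same 3 higher. When the summed FPKM of ribosomal protein genes was set equal, the median of all kept genes moved by 0.67, 8.37% were lower and 55.6% higher (86.9% of the genes past 1.5-fold), and none of the 8 noncoding RNAs was at least 1.5-fold lower. *Malat1* then had a log2 difference of -0.35, *Gas5* -0.27, *Snhg1* -0.27 and *Snhg8* -0.17, and *Snhg11* turned from -0.49 to 0.16. Relative to the median of the kept genes, *Malat1* stood at -1.13 as deposited and at -1.05 under this scaling, and *Gas5* at -1.04 and -0.97. These positions could hardly change, because 1 factor per population moves every gene and the median together. After quantile normalization *Malat1* stood at only -0.48 relative to that median and was under 1.5-fold, and *Gas5* stood at -0.88. *Snhg3*, *Miat* and *Neat1* were at least 1.5-fold higher under all 5 scalings, which include the values as deposited. The upper quartile scaling hardly moved the values, and both sum scalings moved all genes toward Lgr6+ progenitors. Only quantile normalization could thus have taken these genes off the higher side, and there they stood at 1.83, 1.12 and 0.88.

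**Figure D5:**
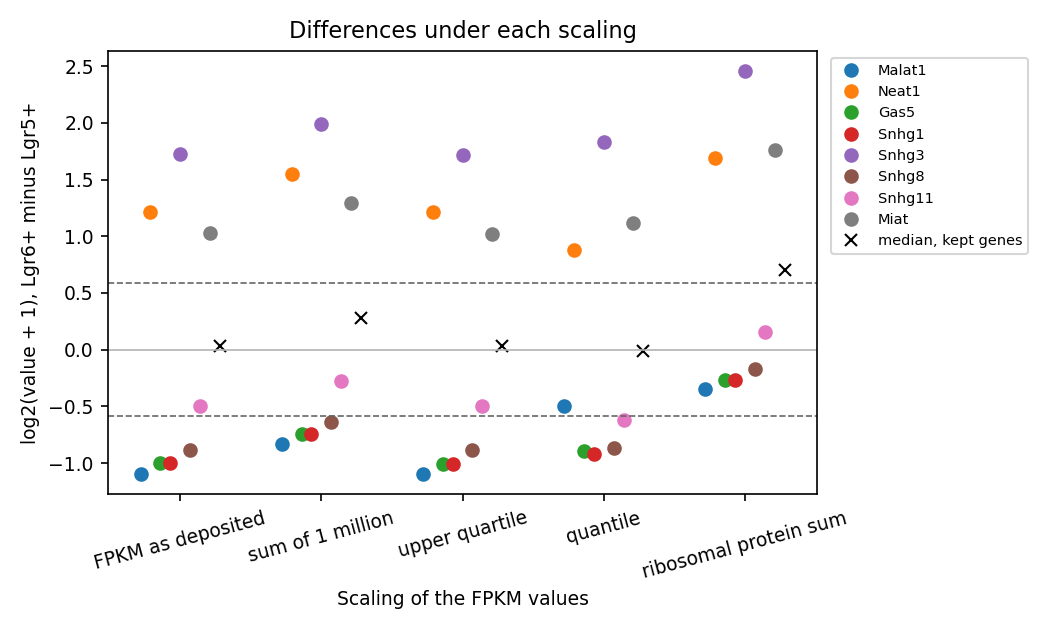
Log2 differences (Lgr6+ minus Lgr5+) of the 8 noncoding RNAs under 5 scalings of the FPKM values, with the median of the kept genes (crosses) and the 1.5-fold limits (dashed). *Snhg3*, *Neat1* and *Miat* stay above the upper limit throughout, and the 4 lower RNAs rise above the lower limit when ribosomal protein genes are set equal, where the cross lies at 0.71.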

How the data were processed

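The authors sequenced RNA of EGFP+ cells with SMART-Seq v4, a kit for small inputs that does not mark strand. Per the labels' processing notes and the methods, FPKM were calculated by the authors with Cufflinks after trimming (Trimmomatic) and mapping (TopHat), and versions are not given in the sources used here. The methods name mm9 and the labels mm10. Of the deposited intervals, 99.4% overlapped the gene in GRCm38.p6 and 12.7% in NCBIM37 (mm9), so positions were read as GRCm38. Starts in the table count from 0 and are given here from 1. Each FPKM value that the authors deposited combines the replicates of a population. The columns of the authors' own fold changes, p-values and q-values were not used.

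With 1 value per population no test was possible, and limma on single samples, the replicate block and the leaving out of replicates were not run. Log2(FPKM + 1) differences, ranks, counts past 1.5-fold and medians of gene lists were computed with Python 3.11.15, numpy 2.4.6, pandas 2.3.3 and scipy 1.17.1, and plotted with matplotlib 3.10.9. Only the differences, the counts past 1.5-fold and the scalings by sum, upper quartile and quantiles were tried on simulated data. The methods give a range of reads per sample that is not tied to the populations, and the table holds no counts, so no counting intervals are given. Named genes were the 8 members, the most similar gene and neighbours of each, cell type markers, and the extremes of each list. Genes past 1.5-fold in short counts, *Upf1*, *Nono* and genes of the sex chromosomes were chosen with values in view. The members and lists were chosen with earlier results of these data known. Some genes of the lists and neighbours are not reported here.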

Additional observations from a re-analysis of the deposited data

How the results depend on the processing

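No paired analysis was possible because the deposited table holds 1 combined value per population, and for the same reason no replicate could be left out. Of the alternatives, a pseudocount of 0.1, no pseudocount (chosen after seeing the data), scaling to the same sum and to the same upper quartile, no filter, a minimum FPKM of 5, a minimum of 1 in both populations (chosen after seeing the data) and a 2-fold threshold left each member and list median on its side of 1.5-fold and each count of members within 1.5 times. The count of higher members fell from 3 to 2 with a minimum FPKM of 5 and with a minimum of 1 in both populations, which *Neat1* did not reach. At 2-fold the count of lower members fell from 4 to 3. Quantile normalization brought *Malat1* to -0.50, inside 1.5-fold, and *Snhg11* to -0.62, outside it. With ribosomal protein genes set equal, the log2 difference was -0.35 for *Malat1*, -0.27 for *Gas5*, -0.27 for *Snhg1* and -0.17 for *Snhg8*, so that 0 members were lower by 1.5-fold. List medians then were 0.71 for other noncoding snoRNA hosts, 0.85 for other long noncoding RNAs, -0.31 for protein-coding snoRNA hosts, 0.70 for snoRNA-binding proteins and 0.70 for nonsense-mediated decay, since this scaling moved the median of all kept genes by 0.67. Without replicates or counts, the precision of the members could not be compared.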

Other observations

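Ribosomal protein genes that host snoRNAs had a lower median log2 difference than those not listed as hosts, -1.11 for 17 genes against -0.67 for 64 genes. The 9 listed protein-coding hosts that are not ribosomal protein genes, such as *Eef2* and *Ncl*, had a median of -1.01. Of these 9, 7 were at least 1.5-fold lower in Lgr6+ progenitors, beside 27.9% of the kept genes with a mean FPKM of at least 50. These are descriptions of combined values, and which ribosomal protein genes are listed as hosts rests on a list that is not complete.

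Some noncoding genes near *Xist* were looked at after their values were seen. *Ftx* had an FPKM of 1.24 (Lgr5+) and 2.95 (Lgr6+), and *Jpx* had 0.422 and 1.38. *Jpx* and *Tsix* were kept only through Lgr6+ progenitors and so had to be higher there. *Tsix*, with 0.288 and 1.80, lies antisense to *Xist* within one deposited interval, and without strand its reads and those of *Xist* cannot be told apart. The Y-linked genes *Eif2s3y*, with 27.3 and 40.3, *Ddx3y*, with 6.73 and 11.4, and *Uty*, with 0.852 and 4.45, were also higher in Lgr6+ progenitors, while *Kdm5d* had 1.296 and 0.719. *Uty* was kept only through Lgr6+ progenitors and *Kdm5d* only through Lgr5+ progenitors. The sex of the animals is not given in the sources used here, and its part in the value of *Xist* was not tested.

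The RNA components of ribonuclease enzymes differed in direction, with *Rmrp* at 4.66 and 1.79 and *Rpph1* at 25.2 and 41.1. *Snora78*, which shares its interval with *Snhg9*, had 24.7 and 36.2, while *Snhg9* had 203 and 112. Whether the library method captures *Rmrp*, *Rpph1* and *Snora78* was not tested, so these values do not give their levels in the cells.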
